A study of Homo sapiens with 6 samples.

Results

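Cornified envelope and terminal differentiation genes were examined in HaCaT cells, an immortalized human keratinocyte line. The 34 genes were chosen by name from 20014 Ensembl genes with deposited values, and all 34 were found. They comprise suprabasal keratins and early differentiation genes (9), envelope precursors (14), crosslinking and processing enzymes with 1 protease inhibitor (8) and corneodesmosome genes (3). The STUB1 knockout group (3 libraries) carried a CRISPR guide against STUB1, a ubiquitin ligase that works with heat shock chaperones, and the control group (3 libraries, genotype given as WT) carried a control guide. Both groups had received a lentiviral CRISPR vector, were grown in DMEM with serum and had no other treatment. Sorted cells were grown into colonies in 96-well plates and screened for STUB1 protein by immunoblot. No label ties a library to a colony or culture, so the spread behind each p-value may be technical, and a group may be 1 clone.

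Keratinocytes that leave the basal layer of the epidermis switch from KRT5 and KRT14 to the suprabasal keratins KRT1 and KRT10. They then make precursors such as involucrin, periplakin, envoplakin and the small proline-rich (SPRR) proteins, which transglutaminases crosslink under the plasma membrane into the cornified envelope. Many of the precursor genes lie side by side in the epidermal differentiation complex of chromosome 1.

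Of the SPRR genes, SPRR1A and SPRR2A fell in the knockout, while SPRR1B and the nearby precursor gene IVL did not pass the test. Their start regions are shown because these genes lie close together, and because AP-1 sites are known from SPRR and involucrin promoters. Each sequence runs from 250 bases before to 50 bases after the start that RefSeq gives on GRCh38.p14. The region of SPRR1A lies at chr1:152983831-152984130 on the plus strand, that of SPRR2A at chr1:153057463-153057762 on the minus strand, SPRR1B at chr1:153030953-153031252 on the plus strand and IVL at chr1:152908296-152908595 on the plus strand. Capitals mark the AP-1 motif TGANTCA, searched on both strands, where N is any base.
SPRR1A: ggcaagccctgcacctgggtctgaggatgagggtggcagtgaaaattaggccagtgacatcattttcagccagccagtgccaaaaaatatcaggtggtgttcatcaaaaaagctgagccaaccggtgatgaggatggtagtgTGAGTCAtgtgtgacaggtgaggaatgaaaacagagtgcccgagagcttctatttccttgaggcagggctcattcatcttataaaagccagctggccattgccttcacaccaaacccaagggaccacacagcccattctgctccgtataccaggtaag
SPRR2A: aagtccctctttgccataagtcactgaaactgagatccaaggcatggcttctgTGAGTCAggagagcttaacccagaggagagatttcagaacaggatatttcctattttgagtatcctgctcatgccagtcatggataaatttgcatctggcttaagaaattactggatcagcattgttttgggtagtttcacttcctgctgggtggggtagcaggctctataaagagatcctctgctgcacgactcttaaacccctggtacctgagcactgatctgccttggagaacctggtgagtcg
SPRR1B: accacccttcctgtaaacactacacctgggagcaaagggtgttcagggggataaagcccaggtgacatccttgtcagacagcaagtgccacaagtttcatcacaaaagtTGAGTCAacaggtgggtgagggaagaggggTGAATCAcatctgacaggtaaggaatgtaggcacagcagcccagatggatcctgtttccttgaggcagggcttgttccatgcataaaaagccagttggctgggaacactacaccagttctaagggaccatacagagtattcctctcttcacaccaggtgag
IVL: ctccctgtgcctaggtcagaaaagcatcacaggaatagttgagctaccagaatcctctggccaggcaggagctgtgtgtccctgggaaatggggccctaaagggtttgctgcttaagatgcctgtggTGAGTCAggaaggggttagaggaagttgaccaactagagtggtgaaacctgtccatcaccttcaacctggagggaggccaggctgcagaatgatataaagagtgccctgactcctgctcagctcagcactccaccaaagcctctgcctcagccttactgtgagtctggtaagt
SPRR1A, SPRR2A and IVL held 1 copy of the motif each and SPRR1B held 2. Counted from the start, the copy began at position -108 in SPRR1A, -123 in IVL and -197 in SPRR2A, and the copies in SPRR1B at -141 and -111. SPRR1A and SPRR1B had 207 identical bases of 300 in a global alignment (69.0%), against 167 (55.7%) for SPRR1A and SPRR2A. So the motif was present in SPRR1A and SPRR2A, which fell, and in SPRR1B and IVL, which did not pass. The start region of KRT10, another member that fell, held no copy. Of the 25 members with a RefSeq start region, 11 (44.0%) held the motif, and among 35116 such regions 7.71% did. No region was at hand for PPL, EVPL, PADI3, SPRR2D, SPRR2E, CST6, KRT1, TGM1 and TGM2, so the member shares leave them out. A member was counted if any of its regions held a motif, while the share of all regions counted each region singly. The shares here and below are thus not on the same basis. Further motifs searched on both strands were the ETS core GGAAG, in 18 of 25 members (72.0%) and 71.9% of all regions, and the KLF-like box CACCC, in 22 of 25 members (88.0%) and 59.9% of all regions. A match describes letters in a window and does not show that a factor binds there.

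Expression of most of these genes was low. Only 8 of the 34 reached a mean of 1 FPKM (fragments scaled to transcript length and library size) over the 6 libraries, the filter used for testing. A further 9 were above 0 in all 6 libraries with a mean under 1, 13 were above 0 in some libraries, and 4 were listed at 0 in all 6. The highest means belonged to the plakin genes PPL (19.2 FPKM, rank 3339 of all genes) and EVPL (6.42 FPKM) and to KRT10 (12.2 FPKM). These 3 and SPRR1B, SPRR1A, IVL, SPRR2A and PADI3 supplied between 92.0% and 94.1% of the summed FPKM of the 34 genes in knockout libraries and between 94.5% and 95.7% in control libraries. That sum lay between 44.1 and 50.4 FPKM in knockout libraries and between 49.9 and 58.7 FPKM in control libraries, so the groups overlapped slightly.

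**Figure D1:**
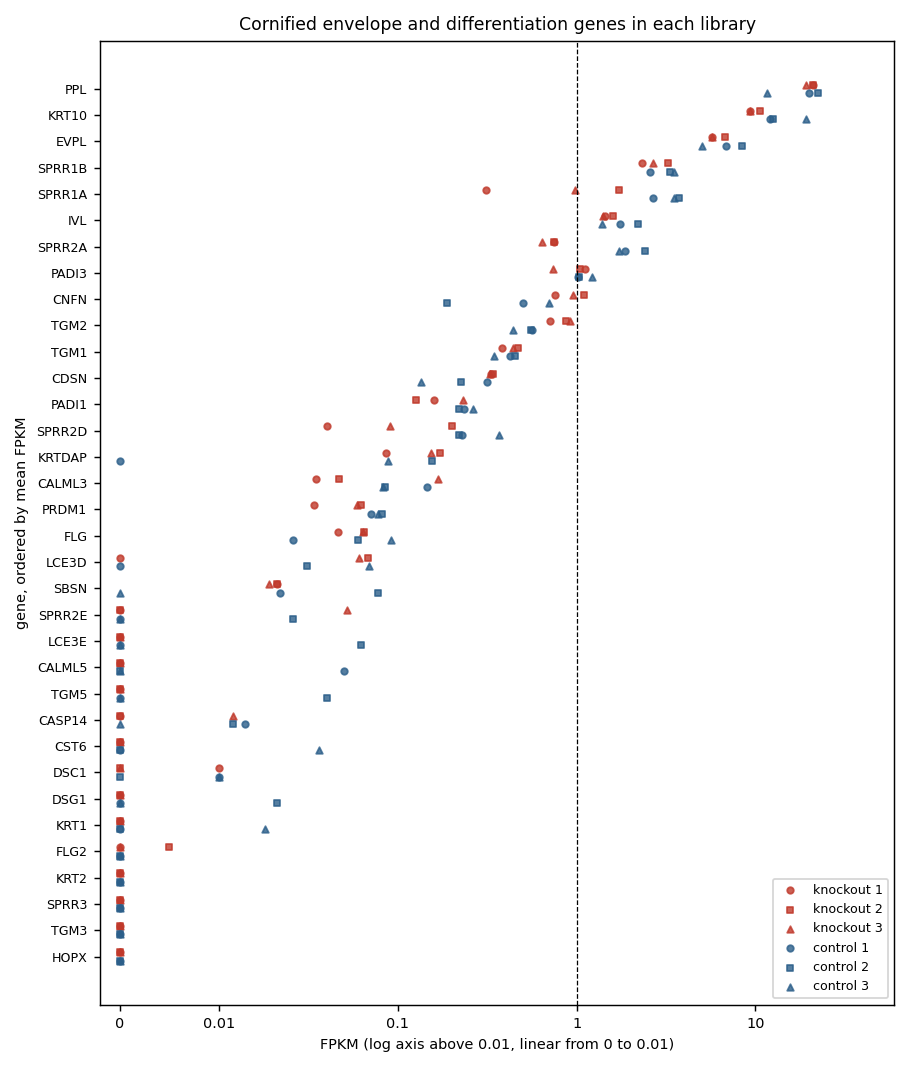
FPKM of each of the 34 genes in each library, ordered by mean; the horizontal axis is logarithmic above 0.01 and linear below it, the dashed line marks 1 FPKM, and knockout points (red) lie above control points (blue) in each row. Only PPL, KRT10, EVPL, SPRR1B, SPRR1A, IVL, SPRR2A and PADI3 have a mean past the line, and 4 genes are at 0 throughout.

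Library quality bears on the values that follow. Estimated depth was 45700000 to 52600000 reads, and 11200 to 11292 genes reached 1 FPKM in each library. Control 3 stood apart, with Pearson's r across genes of 0.988 and 0.986 to controls 1 and 2, against 0.998 between those, and its values declined with transcript length, with a slope of -0.10 log2 units per doubling, against -0.01 to 0.03 in the other libraries. STUB1 mRNA measured 21.6, 24.7 and 23.2 FPKM in the knockout and 37.8, 41.9 and 52.7 FPKM in the control, so it was lower in every knockout library but not absent. Of 8 keratinocyte markers, 7 reached 1 FPKM, among them KRT5 and TP63, but KRT14 stayed at 0.162 to 0.284 FPKM in knockout libraries and 0.211 to 0.328 FPKM in controls. How reads shared between KRT14 and its near-identical copies were counted is not stated, so this low value is uncertain. The keratinocyte markers summed to 883 to 982 FPKM in knockout libraries and 707 to 807 FPKM in controls. Within that sum, KRT5 was 248 to 265 FPKM in knockout libraries and 136 to 152 FPKM in controls. SFN, the largest part, overlapped, with 401 to 492 FPKM in knockout libraries and 368 to 510 FPKM in controls. In the test given below, KRT5 and KRT6A rose and 5 of these markers did not pass. No fibroblast marker of 8 reached 1 FPKM, and their summed level was 0.447 to 0.562 FPKM in knockout libraries and 0.448 to 0.535 FPKM in controls, with DCN at 0. Of 7 leukocyte markers only CD68, a lysosomal protein of macrophages, reached 1 FPKM; their sum was 23.0 to 25.7 FPKM in knockout libraries and 21.7 to 22.8 FPKM in controls, with PTPRC at most 0.011 FPKM. Of 7 melanocyte markers PMEL and MITF reached 1 FPKM; their sum was 6.48 to 7.66 FPKM in knockout libraries and 6.77 to 7.41 FPKM in controls, with TYR at 0. The part of other cell types in the results that follow was not tested. In bulk RNA, fewer cells expressing a gene and less RNA per cell cannot be told apart.

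Among the 8 tested genes, SPRR1A, SPRR2A and KRT10 fell in the knockout, 5 did not pass and none rose (limma, Benjamini-Hochberg adjusted over 11262 genes). Of all tested genes, 13.3% fell and 9.58% rose. The same 3 genes were the ones whose groups did not overlap, a pattern that 25.3% of all tested genes showed in the lower direction. The median log2 fold change was -0.15 over the 8 and -0.01 over all tested genes. With 8 genes, these shares say little about the group as a whole, and the values of each gene follow.

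SPRR1A, a small proline-rich envelope precursor, had 0.312, 1.72 and 0.982 FPKM in the knockout and 2.67, 3.77 and 3.52 FPKM in the control. Every knockout library was below every control library, but the knockout libraries differed among themselves by more than the controls did. The means were 1.01 ± 0.706 FPKM in the knockout and 3.32 ± 0.572 FPKM in the control (SD, n = 3 each), a 3.30-fold lower level, with a log2 fold change of -1.16 (SE 0.22; limma, adjusted p = 0.00715). These fold changes are on the log2(FPKM + 1) scale, which understates low genes; with a pseudocount of 0.1 the value was -1.86 (adjusted p = 0.0178). The start that RefSeq gives lies upstream of the gene as annotated in GENCODE 29, which spans 270 bases here. The level rests on few reads: at the estimated depths and over those bases (chromosome 1, 152985231 to 152985500, GRCh38), it corresponds to about 4, 22 and 14 reads in the knockout and 33, 53 and 44 in the control. The call held under each alternative run.

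SPRR2A, a second envelope precursor of the same cluster, had 0.747, 0.750 and 0.643 FPKM in the knockout and 1.88, 2.41 and 1.72 FPKM in the control. The knockout values lay close together and all below the control values. The level was 0.713 ± 0.0609 FPKM in the knockout and 2.0 ± 0.36 FPKM in the control (SD, n = 3 each), which is 2.81-fold lower, with a log2 fold change of -0.80 (SE 0.0892; limma, adjusted p = 0.000636). With a pseudocount of 0.1 it was -1.36 (adjusted p = 0.000476). Of the 50-base windows of its transcripts, 32.7% also occur in 6 other genes, most often SPRR2B (21.8%), so its reads may be shared within the SPRR2 family. SPRR2D, another member of it, was under the filter at 0.040, 0.201 and 0.090 FPKM in the knockout and 0.229, 0.219 and 0.369 FPKM in the control. The groups of SPRR2D did not overlap, with every knockout value lower, as for 19.0% of genes with a mean of 0.1 to 1 FPKM. In a fit with the filter lowered to 0.1 FPKM it did not pass (limma, adjusted p = 0.0663), and 10.9% of the genes in that range fell.

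SPRR1B, the closest relative of SPRR1A, had 2.32, 3.25 and 2.66 FPKM in the knockout and 2.58, 3.35 and 3.49 FPKM in the control. The groups overlapped, and the gene did not pass (log2 fold change -0.15, 95% interval -0.40 to 0.11; limma, adjusted p = 0.377). The interval leaves room for a decrease, though not one of the size seen for SPRR1A. Within a library, the ratio of SPRR1A to SPRR1B in FPKM was 0.135, 0.531 and 0.369 in the knockout and 1.04, 1.12 and 1.01 in the control. Taken as the difference of the log2(FPKM + 1) values, the ratio lay -1.01 log2 units apart between knockout and control (exact two-sided permutation test, p = 0.1, the smallest that 3 against 3 libraries allow). The pair was chosen for this comparison after the values were seen, and 11.3% of the 50-base windows of SPRR1A also occur in SPRR1B.

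Of the other SPRR and late envelope genes in the complex, SPRR3 was listed at 0 in all libraries. SPRR2E was above 0 in 1 knockout and 1 control library, LCE3E in 1 control library, and LCE3D in 2 libraries of each group, with no value over 0.069 FPKM. FLG, whose product filaggrin bundles keratin filaments, had 0.046, 0.065 and 0.064 FPKM in the knockout and 0.026, 0.060 and 0.091 FPKM in the control, and FLG2 had a value in knockout 2 only (0.005 FPKM). FLG shares 704 of 12747 exonic bases with FLG-AS1 on the opposite strand. At such levels the data do not show whether these genes differ.

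**Figure D2:**
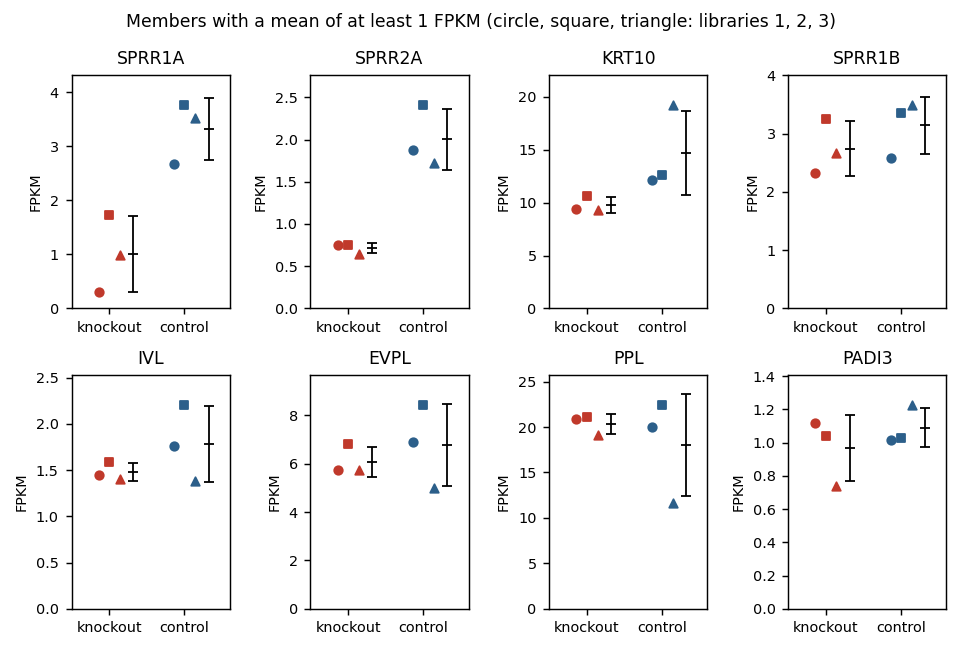
FPKM of the 8 tested genes in the knockout (red) and control (blue) libraries, with the mean and SD in black; circles, squares and triangles are libraries 1, 2 and 3. SPRR1A, SPRR2A and KRT10 have no overlap between groups, and control 3 is the highest KRT10 value and the lowest PPL, EVPL and IVL value.

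IVL encodes involucrin, an early scaffold of the envelope. Its level was 1.45, 1.59 and 1.40 FPKM in the knockout and 1.76, 2.20 and 1.39 FPKM in the control. Control 3 was below all 3 knockout libraries and the other controls were above them. IVL did not pass (log2 fold change -0.16, 95% interval -0.39 to 0.08, limma adjusted p = 0.294). Without control 3 it did pass, at -0.26 (limma, adjusted p = 0.0149). In that fit 2418 of 11262 tested genes fell, against 1500 with all 6 libraries.

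EVPL and PPL encode envoplakin and periplakin, plakins that pair at the membrane early in envelope assembly. EVPL had 5.72, 6.80 and 5.73 FPKM in the knockout and 6.88, 8.41 and 5.00 FPKM in the control. PPL had 20.9, 21.1 and 19.1 FPKM in the knockout and 20.1, 22.4 and 11.6 FPKM in the control. In both genes control 3 was the lowest of the 6 libraries, and both have long transcripts (7510 and 7686 exonic bases in GENCODE 29), the kind whose values were low in that library. Neither passed, at -0.11 for EVPL (adjusted p = 0.612) and 0.21 for PPL (adjusted p = 0.443, limma). Without control 3, EVPL passed at -0.29 (limma, adjusted p = 0.0177), while PPL stood at -0.06 (95% interval -0.20 to 0.09, adjusted p = 0.541). As given for IVL, 2418 of 11262 tested genes fell in that fit. The GC and length correction gave 0.018 for PPL (adjusted p = 0.944) and -0.35 for EVPL (adjusted p = 0.059). Around EVPL, on chromosome 17, 61 of 94 tested genes within 5 Mb fell in the fit with all 6 libraries and none rose. Their median was -0.38, and 83.0% of them had a lower log2 value than EVPL. Of all tested genes 13.3% fell in that fit.

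KRT10, the type I keratin of suprabasal cells, had 9.37, 10.6 and 9.33 FPKM in the knockout and 12.2, 12.6 and 19.2 FPKM in the control. All knockout values were below all control values, and control 3 was far above the rest. The means were 9.77 ± 0.725 FPKM in the knockout and 14.7 ± 3.95 FPKM in the control (SD, n = 3 each), 66.6% of control (log2 fold change -0.51, SE 0.151; limma, adjusted p = 0.0381). Without control 3 the value was -0.32 (adjusted p = 0.00257), and leaving out any single knockout library ended the call (adjusted p = 0.107 to 0.115). KRT10 lies on chromosome 17 at 40818117 to 40822595 (GRCh38). There, 65 of 133 tested genes within 5 Mb fell in the fit with all 6 libraries, none rose and the median was -0.26. KRT10 was lower than all but 16 of them, and 13.3% of all tested genes fell in that fit. The part of this regional shift in the KRT10 value was not tested. Its usual partner KRT1 was listed at 0 except in control 3 (0.018 FPKM), and KRT2, of the uppermost living layers, was at 0 throughout.

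**Figure D3:**
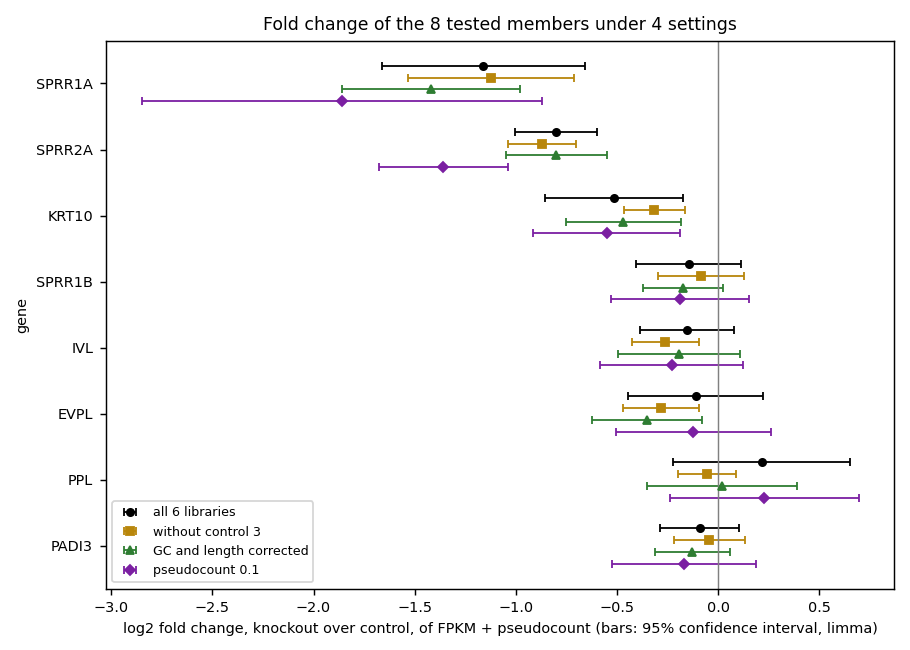
Log2 fold change (knockout over control, horizontal axis) of the 8 tested genes with 95% confidence intervals from limma, for all 6 libraries, without control 3, after a correction for GC content and length, and with a pseudocount of 0.1. The intervals of SPRR1A, SPRR2A and KRT10 stay below 0 in all 4 settings, that of IVL leaves 0 without control 3, and that of EVPL leaves 0 without control 3 and after the GC and length correction.

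The remaining early differentiation genes were scarce. KRTDAP, a keratinocyte differentiation peptide, had 0.086, 0.172 and 0.154 FPKM in the knockout and 0, 0.156 and 0.088 FPKM in the control. CALML3, a calmodulin-like protein of epithelia, had 0.035, 0.047 and 0.167 FPKM in the knockout and 0.145, 0.085 and 0.083 FPKM in the control. For both the groups overlapped, and CALML3 shares exonic bases with CALML3-AS1 on the opposite strand. SBSN (suprabasin) had a value in 5 libraries, none above 0.077 FPKM, CALML5 in control 1 only (0.050 FPKM), and HOPX was at 0 in all 6. PRDM1, a transcriptional repressor of late differentiation, had 0.034, 0.062 and 0.059 FPKM in the knockout and 0.071, 0.081 and 0.077 FPKM in the control. These values correspond to about 10, 19 and 20 reads in the knockout and 21, 27 and 23 in the control. The groups did not overlap, but the share of genes at this level that do so was not computed. PRDM1 lies on chromosome 6, where 24 of 27 tested genes within 5 Mb fell (median -0.58). This count is from the fit with all 6 libraries, in which 13.3% of all tested genes fell. Whether the lower values of PRDM1 belong to that shift was not tested. Its mean, 67.7% of control, was under both filters. In the fit without a filter PRDM1 did not pass (log2 fold change -0.03; limma, adjusted p = 0.16).

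Among the enzymes, only PADI3 was tested. PADI3, a peptidylarginine deiminase that citrullinates trichohyalin and filaggrin, had 1.12, 1.04 and 0.742 FPKM in the knockout and 1.02, 1.03 and 1.23 FPKM in the control. The groups overlapped, and it did not pass (log2 fold change -0.09, 95% interval -0.29 to 0.10; limma, adjusted p = 0.467). PADI1 had 0.159, 0.127 and 0.231 FPKM in the knockout and 0.233, 0.219 and 0.264 FPKM in the control, again with overlap.

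TGM1, the membrane-bound transglutaminase that crosslinks the envelope, had 0.384, 0.470 and 0.441 FPKM in the knockout and 0.422, 0.452 and 0.347 FPKM in the control, with overlap. TGM3 was at 0 in all libraries and TGM5 had a value in control 2 only (0.040 FPKM). TGM2, the widely expressed tissue transglutaminase, was different, with 0.713, 0.876 and 0.916 FPKM in the knockout and 0.561, 0.555 and 0.441 FPKM in the control. Every knockout library was above every control library, 1.61-fold by the ratio of means. In the fit with the filter at 0.1 FPKM, TGM2 passed (log2 fold change 0.27, SE 0.0627; limma, adjusted p = 0.0161), but after the correction for GC content and length it did not (0.14, adjusted p = 0.157). It shares 394 of 8036 exonic bases with RPRD1B on the opposite strand, and no strand setting is stated.

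CNFN (cornifelin, an envelope protein) had 0.757, 1.10 and 0.957 FPKM in the knockout and 0.500, 0.188 and 0.704 FPKM in the control, 2.03-fold higher by the ratio of means and without overlap. At the lower filter its log2 fold change was 0.42 (limma, adjusted p = 0.0395). This call was lost without any filter (0.42, adjusted p = 0.0876), with a pseudocount of 0.1 (0.99, adjusted p = 0.0609) and after the GC and length correction (0.30, adjusted p = 0.0891). Without control 3 the log2 value was 0.54 (limma, adjusted p = 0.000903). In that fit 2238 of 13297 genes passed as higher, against 1264 with all 6 libraries. At the filter of 0.1 FPKM with all 6 libraries, 15 members were tested, of which TGM2 and CNFN passed as higher and SPRR1A, SPRR2A and KRT10 as lower, against 9.51% and 12.9% of all 13297 genes. TGM2 and CNFN were 2 of 7 members with a mean between 0.1 and 1 FPKM, and 9.48% of the 2035 genes in that range passed as higher. CDSN (corneodesmosin), the adhesive protein of corneodesmosomes, also lay higher in every knockout library, with 0.330, 0.340 and 0.326 FPKM against 0.317, 0.225 and 0.135 FPKM in the control. It did not pass (adjusted p = 0.162), and 2394 of its 2552 exonic bases overlap PSORS1C1 on the opposite strand, so the reads of these genes cannot be told apart. Absence of overlap in the higher direction, as in TGM2, CNFN and CDSN, was seen in 18.4% of genes in this range.

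The other corneodesmosome and protease genes were close to 0. DSC1 (desmocollin 1) had 0.010 FPKM in knockout 1, control 1 and control 3, and DSG1 (desmoglein 1) had 0.021 FPKM in control 2 only. CASP14, the protease that helps to break down filaggrin, had a value in 1 knockout and 2 control libraries (at most 0.014 FPKM), and CST6, a cystatin that inhibits cathepsins, in control 3 only (0.036 FPKM). Of the 13 members with values in some libraries, 7 had a value in a single library, at most 0.062 FPKM. Such levels do not show whether these genes differ between the groups.

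**Figure D4:**
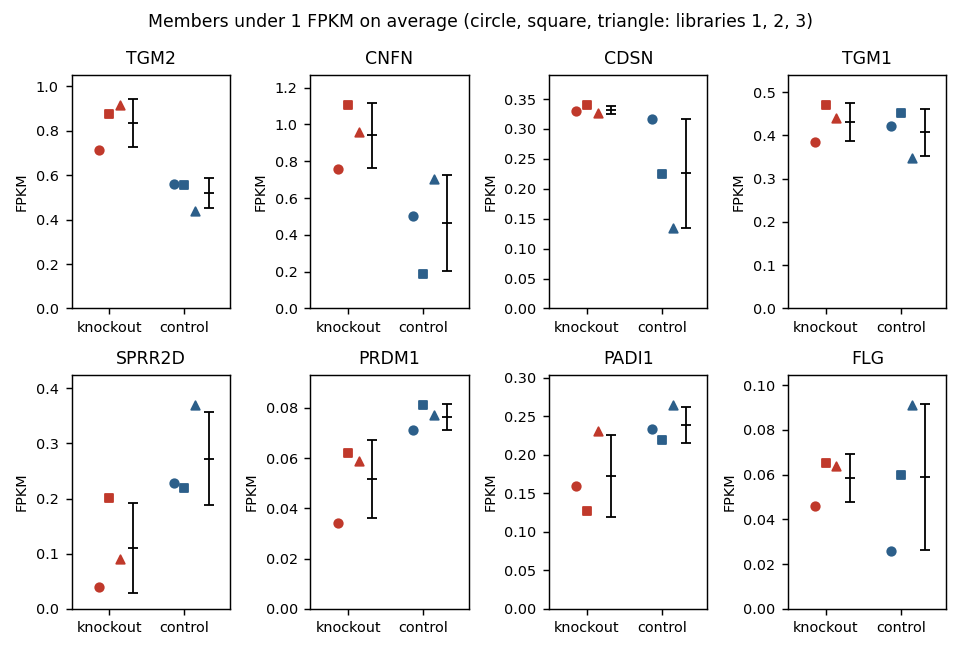
FPKM of 8 members under the filter in the knockout (red) and control (blue) libraries, with the mean and SD in black; circles, squares and triangles are libraries 1, 2 and 3. TGM2, CNFN and CDSN are higher and SPRR2D and PRDM1 lower in every knockout library, while TGM1, PADI1 and FLG overlap. No share of genes without overlap was computed at the level of PRDM1.

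The SPRR genes were set against the rest of the epidermal differentiation complex, taken here as chromosome 1 from S100A11 to S100A1 (152032506 to 153632039, GRCh38). The table holds 63 genes of this stretch, of which 25 were at 0 in all libraries and 16 were tested. SPRR1A and SPRR2A were the ones that fell, while S100A7, S100A8, S100A9 and S100A1 rose and 10 did not pass. Among all tested genes 13.3% fell and 9.58% rose. S100A9, which forms calprotectin with S100A8, starts 373 kb from SPRR1A and averaged 367.3 FPKM in the knockout and 38.7 FPKM in the control (log2 fold change 3.23; limma, adjusted p = 8.2e-07). Of 154 tested genes within 5 Mb of SPRR1A, 22 rose, 8 fell and none had a lower log2 value than SPRR1A.

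**Figure D5:**
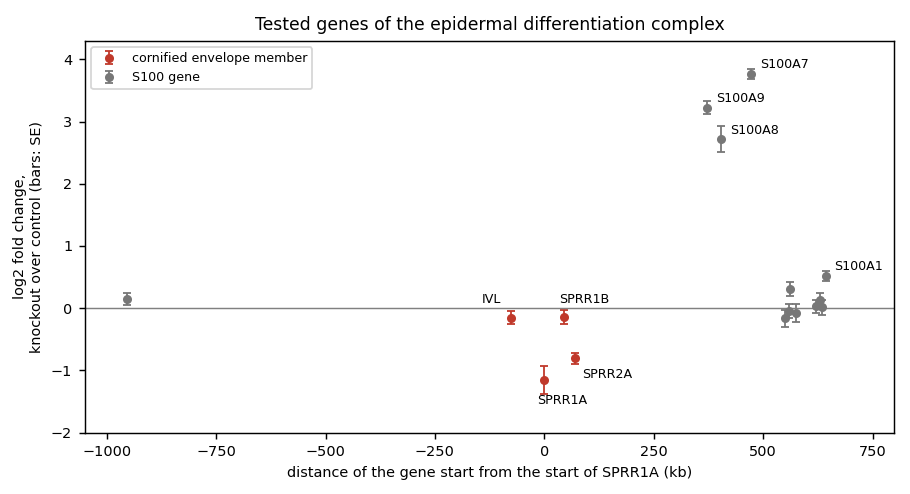
Log2 fold change (knockout over control, bars are SE) of the 16 tested genes of the epidermal differentiation complex against the distance of each gene start from that of SPRR1A in kb. SPRR1A and SPRR2A lie below 0 at -1.16 and -0.80, IVL and SPRR1B near 0, and S100A7, S100A8 and S100A9 far above 0.

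Other genes of cornification were taken from lists. Of 39 further envelope precursors in the table, 21 were at 0 in all libraries and 6 were tested. Of these PI3, encoding the crosslinkable elastase inhibitor elafin, rose to 13.8 ± 2.35 FPKM in the knockout, against 2.91 ± 0.613 FPKM in the control (SD, n = 3 each; log2 fold change 1.92, limma, adjusted p = 8.2e-05), and 5 did not pass. Of 9 other suprabasal keratins 1 was tested and did not pass. The median of the 6 tested precursors was 0.15, against -0.01 for all tested genes, of which 9.58% rose. The 1 tested keratin had a log2 fold change of 0.17 (limma, adjusted p = 0.281), which describes that gene only.

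Of 25 tested cornification enzymes, proteases and inhibitors, 3 rose, 6 fell and 16 did not pass (median -0.02). Over all tested genes 9.58% rose and 13.3% fell. BLMH, a protease that helps to degrade filaggrin peptides, fell to 27.2% of control. KLK5, a kallikrein that cleaves corneodesmosomes, fell to 48.3%, KLK6, a related kallikrein, to 56.2%, and SPINK5, encoding the kallikrein inhibitor LEKTI, to 54.0%. KLK13, a further kallikrein, rose 2.68-fold, CAPN1, a calpain, 1.32-fold and KLK10 1.38-fold. Adjusted p for these 7 was at most 0.00989 (limma, Benjamini-Hochberg). With 0.1 as pseudocount, log2 values were -0.78 for KLK6, -0.82 for SPINK5 and 1.29 for KLK13, against -0.49, -0.50 and 0.70, and the GC and length correction moved that of CAPN1 to 0.19, against 0.39. KLK10 no longer passed when knockout 2 (adjusted p = 0.056) or knockout 3 (0.0554) was left out.

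Of 29 tested regulators of keratinocyte differentiation, 5 rose, 1 fell and 23 did not pass (median 0.19), against 9.58% higher and 13.3% lower of all tested genes. JAG1 and JAG2, ligands of Notch receptors, rose 1.44-fold and 1.31-fold. HES1, a Notch target, rose 1.41-fold, and RXRA, a nuclear receptor partner, 1.39-fold. OVOL1, a transcription factor of differentiating epidermis, fell to 69.2% of control, at 1.13 ± 0.117 FPKM in the knockout and 1.64 ± 0.0506 FPKM in the control (SD, n = 3 each). Adjusted p for these 5 was at most 0.0124 (limma, Benjamini-Hochberg). The GC and length correction moved the log2 values of JAG2 and RXRA to 0.16 and 0.21, against 0.37 and 0.45, and with the replicate block added JAG2 no longer passed (adjusted p = 0.0604). OVOL1 no longer passed when knockout 1 (adjusted p = 0.0567) or knockout 3 (0.0575) was left out, and its log2 value was -0.50 with a pseudocount of 0.1, against -0.31.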

How the data were processed

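Poly(A)-selected RNA from 6 libraries was sequenced, and the authors deposited 1 table of FPKM values, rounded to 3 decimals, with no counts. The build GRCh38.p13 and, in no stated role, Cufflinks, edgeR 3.6.3, featureCounts 1.6.3, HISAT2 2.0.5 and Trimmomatic 0.36 come from the submitters' processing notes. The annotation release and the strand setting were not given in the sources used here.

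FPKM is no count, so limma 3.58.1 (R 4.3.3) was run on log2(FPKM + 1) with genotype as the sole term, a trended variance prior and Benjamini-Hochberg adjustment at 0.05, over the 11262 genes with a mean of at least 1 FPKM. Groups were compared as labelled. The smallest exact permutation p of 3 against 3 libraries (10 splits, two-sided) is 0.1. Symbols came from an identifier table, and coordinates and exonic lengths from GENCODE 29 on GRCh38. Depth was estimated from steps in FPKM times length for genes of 300 to 2000 bases. Of these low values, 59.2% to 65.4% lay within 0.15 of a whole read, so depths and read equivalents are estimates, and no counting interval is given. Start regions came from RefSeq (GRCh38.p14). Tables and plots used Python 3.11.15, pandas 2.3.3, numpy 2.4.6 and matplotlib 3.10.9. The fit was tested on simulated data.

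The members and gene lists were chosen with earlier results of these data known. All 34 members are named. From each other list, up to 4 genes a direction with the smallest p among those past the threshold are named, and the S100 genes and the bounds of the differentiation complex were chosen after their values were seen. Planned alignments of the proteins were not made. Replicate numbers are shared between groups. Deviations from the group means correlated between same-numbered libraries at 0.375, 0.150 and 0.188, all above 0.1. Between libraries of unlike number the values ran from -0.310 to 0.0665. Such deviations cancel out within a group, so these values depend on each other and do not establish pairing. Libraries were treated as paired by number in the block fits, although no label states a shared day. Alternatives were other pseudocounts, filters, scalings and weights, a spline correction for GC content and length, the replicate block, and each library left out.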

Additional observations from a re-analysis of the deposited data

How the results depend on the processing

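SPRR1A and SPRR2A kept their direction and their call under every alternative run, with log2 values of -1.86 to -0.89 and -1.36 to -0.71. KRT10 stayed lower throughout (-0.63 to -0.32) but lost its call without a filter (adjusted p = 0.0901), with median scaling (0.057) and without any 1 knockout library. The number of members that fell, 3, became 5 with array weights, which gave control 3 a weight of 0.119. It ranged from 2 to 5 when 1 library was left out, IVL and EVPL joining without control 3. In the whole table, 1500 of 11262 genes fell in the main fit and 3028 with array weights. With 1 library left out 639 to 2418 fell, the most without control 3. No member rose at the filter of 1 FPKM, but 1 did without a filter and 2 with a filter of 0.1 FPKM. In combinations added after seeing the data, the filter of 0.1 gave 2 higher with the replicate block and 1 with a pseudocount of 0.1. It gave 0 higher with the GC and length correction, and 2 higher and 5 lower without control 3. That last combination gave 2238 higher and 2584 lower of 13297 genes in the whole table. The replicate block alone changed no call among the 8 tested members, and with it 3051 genes passed in the whole table, against 2579. With the GC and length correction EVPL had -0.35 (adjusted p = 0.059, and 0.0317 with the block). The direction of PPL turned, with -0.055 under array weights and -0.056 without control 3 at either filter (range with 1 library left out -0.056 to 0.39), and that of EVPL with 0.039 without control 2 (range -0.29 to 0.039). None of the turned values was past the threshold, and the cause was not tested. Genes called in the whole table numbered 5798 with array weights, 1030 to 4521 with 1 library left out, and 4822 at the filter of 0.1 without control 3. As TPM the split was 667 higher and 1622 lower, against 1079 and 1500. Low expression limits the rest: 26 of 34 members were under the filter.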

Other observations

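Basal keratinocyte and desmosome genes were measured in the same fit. Of 14 tested basal genes 4 rose and 10 did not pass (median log2 fold change 0.03). For both lists, the shares over all tested genes were 9.58% higher and 13.3% lower. KRT5, the basal type II keratin, reached 257.0 ± 8.83 FPKM in the knockout, against 145.4 ± 8.33 FPKM in the control (SD, n = 3 each; limma, adjusted p = 0.000267). COL17A1, a hemidesmosome collagen, rose 1.63-fold (adjusted p = 0.00479). The laminin chains LAMB3 and LAMA3 rose 1.29-fold and 1.38-fold, but neither passed when control 1 or any single knockout library was left out. LAMA3 also did not pass without a filter (adjusted p = 0.0891) or as TPM (0.0546), and its log2 value was 0.29 without control 3 and 0.31 with array weights, against 0.47. Of 10 tested desmosome genes other than DSG1 and DSC1, PKP3 (plakophilin 3) rose 1.33-fold and PERP fell to 70.6% of control, and neither passed without knockout 2 (adjusted p = 0.0593 and 0.0651). The GC and length correction gave PKP3 a log2 value of 0.25, against 0.41.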
